A study of Mus musculus with 12 samples.

Results

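Cytosolic ribosomal protein genes encode the protein part of the ribosomes that translate nuclear messages, and their messages are among the most abundant in a lymphocyte. They were taken from the deposited table as every row whose symbol starts with Rpl or Rps, with an optional p, followed by a digit. Rows marked as pseudogenes by -ps and the Rps6k kinases were left out. This gave 93 of 47359 gene rows, 55 named for the large (60S) subunit and 38 for the small (40S) subunit. Of the 93, 76 were core genes of the ribosome (46 large, 30 small), 10 were paralogues or expressed retrocopies of a core gene, 6 were processed copies, and 1, Rps19bp1, encodes a protein that binds Rps19 and is no ribosomal protein. Ribosomal protein genes whose names fall outside the rule, such as Fau, Rpsa and Rack1, are given apart.

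The cells were TH17 cells of 2D2 mice, whose transgenic receptor recognises a myelin protein, transferred into RAG2-/- hosts, which lack their own lymphocytes with rearranged receptors. They were sorted from the central nervous system (CNS) of these hosts at peak disease, which after transfer of such cells is experimental autoimmune encephalomyelitis. The 4 groups were 2D2-IL-17A/F-DKO CXCR6+ cells (DKO CXCR6+, 1 library), 2D2-WT CXCR6+ cells (WT CXCR6+, 5 libraries), 2D2-IL-17A/F-DKO SLAMF6+ cells (DKO SLAMF6+, 1 library) and 2D2-WT SLAMF6+ cells (WT SLAMF6+, 5 libraries). DKO cells lack both IL-17A and IL-17F. Each library came from 1000 living cells, and all groups share the transfer, the host and the tissue. Host age, the day of sorting and whether replicates were separate animals are not given in the labels. CXCR6+ and SLAMF6+ TH17 cells are described in this model as effector-like and stem-like cells, and the design sets the subsets and the genotypes against each other.

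Ribosomal proteins are made in step with each other and with ribosomal RNA, and a protein without a place in a subunit is degraded. Their messages begin with a run of pyrimidines, the 5′ terminal oligopyrimidine (TOP) tract, through which mTORC1 and the RNA-binding protein LARP1 set how much of each message is translated and kept. When a T cell is activated it makes more ribosomes, and resting cells hold back TOP messages.

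RefSeq promoter windows (GRCm38.p6) matched 68 of the 93 members. The first bases of 7 members are printed from 10 bases before the annotated start to 20 bases from it on, because they show the TOP run, or its lack, in members that the results below turn on. Capitals mark a run of C followed by at least 4 bases C or T that begins within 10 bases of the start. Rps27 and Rps27rt each hold another such run further upstream in the printed stretch, which is left in lower case.
Rps15a, chr7:118116128-118116157 (minus strand): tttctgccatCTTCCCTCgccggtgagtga
Rps6, chr4:86857348-86857377 (minus strand): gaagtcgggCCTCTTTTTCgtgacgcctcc
Rplp2, chr7:141447641-141447670 (plus strand): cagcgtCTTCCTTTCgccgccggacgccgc
Rps27, chr3:90213629-90213658 (minus strand): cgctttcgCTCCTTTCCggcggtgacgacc
Rps27rt, chr9:114982720-114982749 (minus strand): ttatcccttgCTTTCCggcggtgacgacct
Rplp0, chr5:115559457-115559486 (plus strand): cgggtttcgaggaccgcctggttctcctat
Rpl5, chr5:107900518-107900547 (plus strand): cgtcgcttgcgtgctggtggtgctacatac
Rps15a had the lowest fold change of the core genes in WT cells and Rps6 is the subunit protein that S6 kinases phosphorylate, while Rplp2 stands for the stalk. Rps27 and its retrocopy Rps27rt share 19 bases in these stretches. Neither Rplp0 nor Rpl5 held such a run at the annotated start, which says nothing of the start used in these cells. The run was found in 36 of 66 core windows (54.5%) and in 30.7% of all 32851 windows. Of the other motifs searched on both strands over 300 bases, CCGGAAG stood in 36.4% of core windows (8.86% of all windows) and AAGATGGC in 10.6% (2.75%). GGGCGG stood in 60.6% (35.7%), CACGTG in 12.1% (7.15%) and TATAAA in 9.09% (13.6%). Matches of different motifs may overlap, and a match is not a shown binding site.

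The DKO CXCR6+ library held 8552216 counts and the WT CXCR6+ libraries 6818658 to 8710148 each. The DKO SLAMF6+ library held 8285134 counts and the WT SLAMF6+ libraries 8134987 to 11635037 each. Levels are CPM, counts scaled to library size with TMM factors. Il17a had 0 and 3 counts in the DKO CXCR6+ and DKO SLAMF6+ libraries, and 1622 to 4751 counts in the 10 WT libraries. Both DKO libraries stood apart in other ways. Trbv16, the segment of the 2D2 receptor, held 9.96% and 6.51% of Trbv counts in the DKO CXCR6+ and SLAMF6+ libraries and 99.6 to 99.8% in WT libraries, so the receptor segments of both DKO libraries go against their 2D2 label. Xist had 0 counts in both DKO libraries and 447 to 1846 counts in WT libraries. Ddx3y, on the Y chromosome, had 314 and 249 counts in the DKO libraries and 0 in WT libraries. Haemoglobin genes held 11.9% of the DKO SLAMF6+ library. Summed T cell markers stood at 4503 CPM in DKO CXCR6+ and 3663 to 5550 CPM in WT CXCR6+. They stood at 4806 CPM in DKO SLAMF6+ and 5848 to 6820 CPM in WT SLAMF6+, so the WT ranges did not overlap. Myeloid and microglial markers summed to 101 CPM in DKO CXCR6+, 27.8 to 54.5 CPM in WT CXCR6+, 272 CPM in DKO SLAMF6+ and 74.3 to 96.5 CPM in WT SLAMF6+, with Adgre1 at 0 in every CXCR6+ library, P2ry12 at 0 in both DKO libraries and Lyz2 and Itgam at 0 in every WT SLAMF6+ library. The part of any of these differences in the results was not tested, and with 1 DKO library a subset they cannot be told apart from the genotype.

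Ribosomal protein members took a smaller share of the RNA in WT CXCR6+ cells than in WT SLAMF6+ cells, and both DKO libraries lay between. The large subunit rows held 8.73% of counts in DKO CXCR6+, 5.91%, 5.42%, 6.20%, 5.87% and 6.15% in the WT CXCR6+ libraries, 8.14% in DKO SLAMF6+, and 10.7%, 10.8%, 11.1%, 11.4% and 11.4% in the WT SLAMF6+ libraries. The small subunit rows held 7.23% in DKO CXCR6+, 3.90 to 4.46% in WT CXCR6+, 6.77% in DKO SLAMF6+ and 7.80 to 8.36% in WT SLAMF6+. The groups did not overlap in either subunit. Mitochondrial genes ran the other way, at 7.45% of counts in DKO CXCR6+, 12.9 to 17.6% in WT CXCR6+, 8.56% in DKO SLAMF6+ and 2.20 to 5.24% in WT SLAMF6+. With mitochondrial and haemoglobin genes left out of the total, the members held 17.2% in DKO CXCR6+, 12.02 ± 0.821% in WT CXCR6+ (SD, n = 5), 18.8% in DKO SLAMF6+ and 19.8 ± 0.558% in WT SLAMF6+ (SD, n = 5). On that scale the lowest WT SLAMF6+ library stood at 19.02%, just above the DKO SLAMF6+ library. The ratio of large to small subunit counts was 1.21 and 1.20 in the DKO CXCR6+ and SLAMF6+ libraries, below every WT library (1.36 to 1.42). In bulk RNA, fewer cells of a type and less RNA per cell cannot be told apart.

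**Figure D1:**
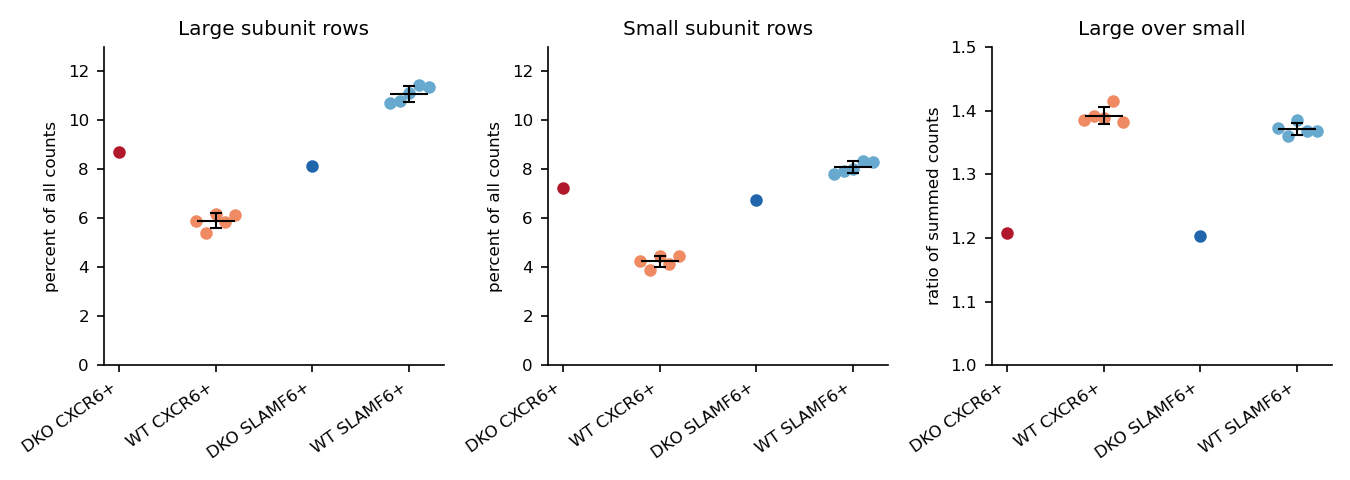
Share of all counts (percent) held by large subunit rows and by small subunit rows, and the ratio of the sums, in each library by group; points are libraries, bars the mean ± SD of 5 WT libraries. The WT SLAMF6+ shares are highest and the WT CXCR6+ shares lowest, while the ratio (axis from 1) is lowest in the DKO libraries at 1.21 and 1.20.

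In WT cells nearly the whole set was lower in CXCR6+ than in SLAMF6+ libraries. Of the 90 members that passed the filter on low counts (Rpl3l, Rpl10l and Rps23rg1 did not), 83 were lower, 1 was higher and 6 did not pass edgeR's quasi-likelihood test (adjusted after Benjamini-Hochberg). Over all 21565 genes tested, 17.7% were lower and 15.6% higher. The median log2 fold change of the members was -1.25, and that of all genes 0.13. The ranges of the 5 CXCR6+ and 5 SLAMF6+ values did not overlap for 82 members in the lower direction (15% of all genes) and 1 in the higher direction (12.8%). At least 2-fold lower were 76 members, against 4.77% of all genes. The 2 subunits moved alike, with 45 of 46 core large subunit genes lower (median -1.24) and 29 of 30 core small subunit genes lower (median -1.32).

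**Figure D2:**
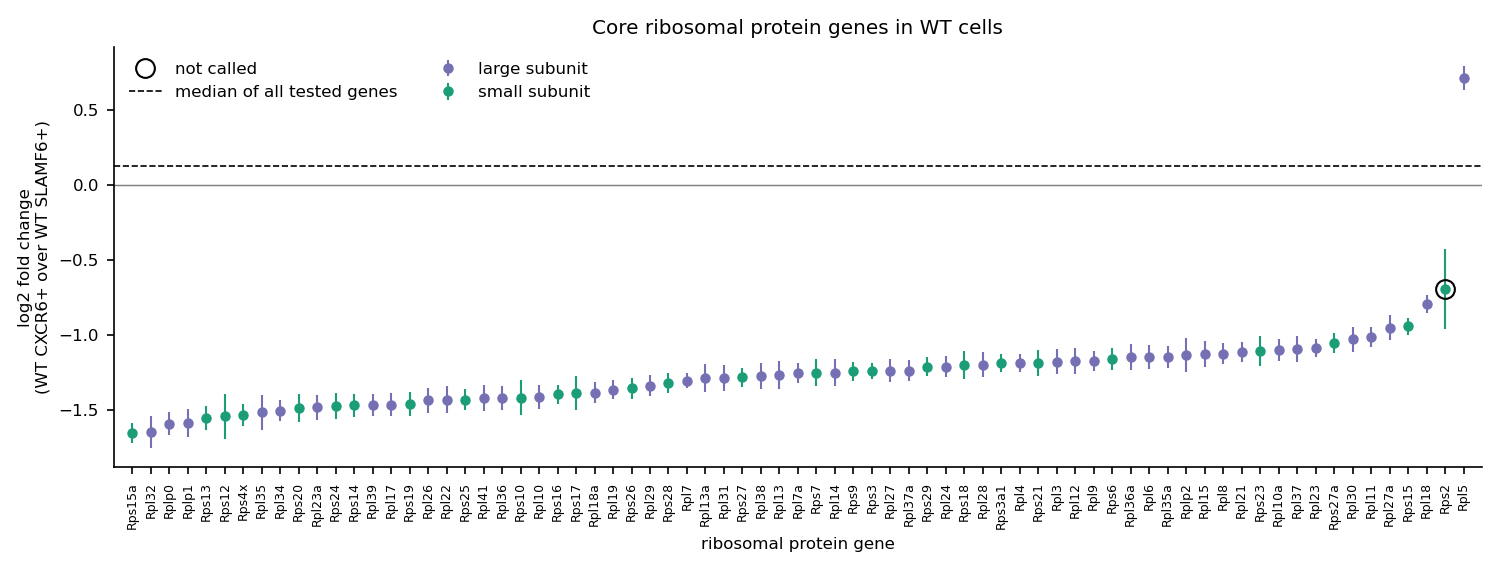
Log2 fold change of WT CXCR6+ over WT SLAMF6+ (points, with standard error bars) for 73 core genes in ascending order, coloured by subunit; the dashed line is the median of all tested genes (0.13). The values run from -1.65 for Rps15a to -0.69 for Rps2, which was not called, and then to 0.71 for Rpl5.

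Rps15a, a small subunit gene mutated in human Diamond-Blackfan anaemia, fell furthest among members of at least 20 CPM. It stood at 1050.4, 1000.3, 1104, 1097 and 1151 CPM in WT CXCR6+ cells, against 3146, 3326, 3291, 3573 and 3631 CPM in WT SLAMF6+ (log2 -1.65, SE 0.066, adjusted p 4.06e-07, edgeR). The lowest SLAMF6+ library exceeded the highest CXCR6+ library. Also among the 6 lowest members of at least 20 CPM were Rpl32 (log2 -1.65), Rplp0 (-1.59), Rplp1 (-1.58) and the processed copy Rps3a2 (-1.57).

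The stalk proteins recruit translation factors to the large subunit, and 4 of 4 of their genes were lower in WT CXCR6+ cells. Rplp0, the anchor of the stalk, stood at 1833, 1723, 2050.2, 1802 and 2079 CPM in WT CXCR6+ cells, against 5445, 5347, 5764, 5736 and 6253 CPM in WT SLAMF6+ (log2 -1.59, adjusted p 5.14e-07, edgeR). Its partners Rplp1 and Rplp2 and the stalk base gene Rpl12 had log2 -1.58, -1.13 and -1.17. Genes of the tunnel through which the new peptide leaves, and of its rim, were lower in 8 of 8 cases, from -1.52 (Rpl35) to -1.19 (Rpl4). Rpl39, a small protein in the tunnel wall, averaged 1009.6 ± 70.9 CPM in WT CXCR6+ cells, against 2784 ± 201 CPM in WT SLAMF6+ (SD, n = 5 each).

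Along the messenger RNA channel and decoding site 7 of 8 genes were lower. The exception, Rps2, at the entry of the channel, stood at 368, 400.2, 746, 377 and 919 CPM in WT CXCR6+ cells, against 831, 797, 937, 816 and 1168 CPM in WT SLAMF6+. Replicate 5 of WT CXCR6+ lay within the WT SLAMF6+ range and replicate 3 just below it, and the difference was not called (log2 -0.69, adjusted p 0.0686, edgeR). Rps6 averaged 1279 ± 111 CPM in WT CXCR6+ cells, against 2856 ± 146 CPM in WT SLAMF6+ (log2 -1.16, adjusted p 1.23e-06, edgeR, n = 5 each), a level that is uncertain since named pseudogene copies hold many of the counts. Of 23 members mutated in human Diamond-Blackfan anaemia, a failure of red cell formation, 22 were lower and 1 higher; Rps19, the first of these genes to be found, had log2 -1.46.

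Rpl5 was the 1 member that was higher in WT CXCR6+ cells. Rpl5 and Rpl11 carry 5S ribosomal RNA into the large subunit and, when free, bind the p53 inhibitor Mdm2. Rpl5 stood at 111, 106, 122, 137 and 121 CPM in WT CXCR6+ cells, against 78.5, 75.4, 64.7, 74.9 and 71.6 CPM in WT SLAMF6+, with no overlap (log2 0.71, SE 0.08, adjusted p 5.25e-05, edgeR). Its partner Rpl11 averaged 615 ± 29.8 CPM in WT CXCR6+ cells, against 1239.5 ± 97.3 CPM in WT SLAMF6+ (log2 -1.01, adjusted p 1.55e-06, edgeR, n = 5 each). Per kilobase of coding sequence Rpl5 also had the lowest level of the 76 core genes, at 134 CPM in WT CXCR6+ cells, against 81.9 CPM in WT SLAMF6+. The next lowest were Rpl35 in WT CXCR6+ (439 CPM per kilobase) and Rps2 in WT SLAMF6+ (1035 CPM per kilobase), and the highest in both was Rpl41 (31138 and 83289 CPM per kilobase), whose coding sequence is the shortest at 75 bases. Named pseudogene copies held 2.96% of the sum of Rpl5 with its copies in WT CXCR6+ and 8.35% in WT SLAMF6+. Whether reads of Rpl5 were counted in rows other than named copies was not tested, so its low level is uncertain.

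The others at the upper end of the WT order were Rps19bp1 (log2 -0.52, adjusted p 0.0173, edgeR), Rpl36al (-0.73) and Rpl18 (-0.79), all lower in CXCR6+. The Rps19bp1 call was lost with a filter of 10 CPM in 5 libraries (log2 -0.25, adjusted p 0.126, edgeR) and in 4 other alternatives. Rps12l1, a processed copy, had the highest fitted value (log2 3.07, not called). It held 0 counts in 9 of 12 libraries, and 1079 and 345 counts in WT CXCR6+ replicates 2 and 3 and 190 counts in WT SLAMF6+ replicate 4.

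The levels of 8 members in every library are plotted to show these patterns beside those of the DKO libraries described next.

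**Figure D3:**
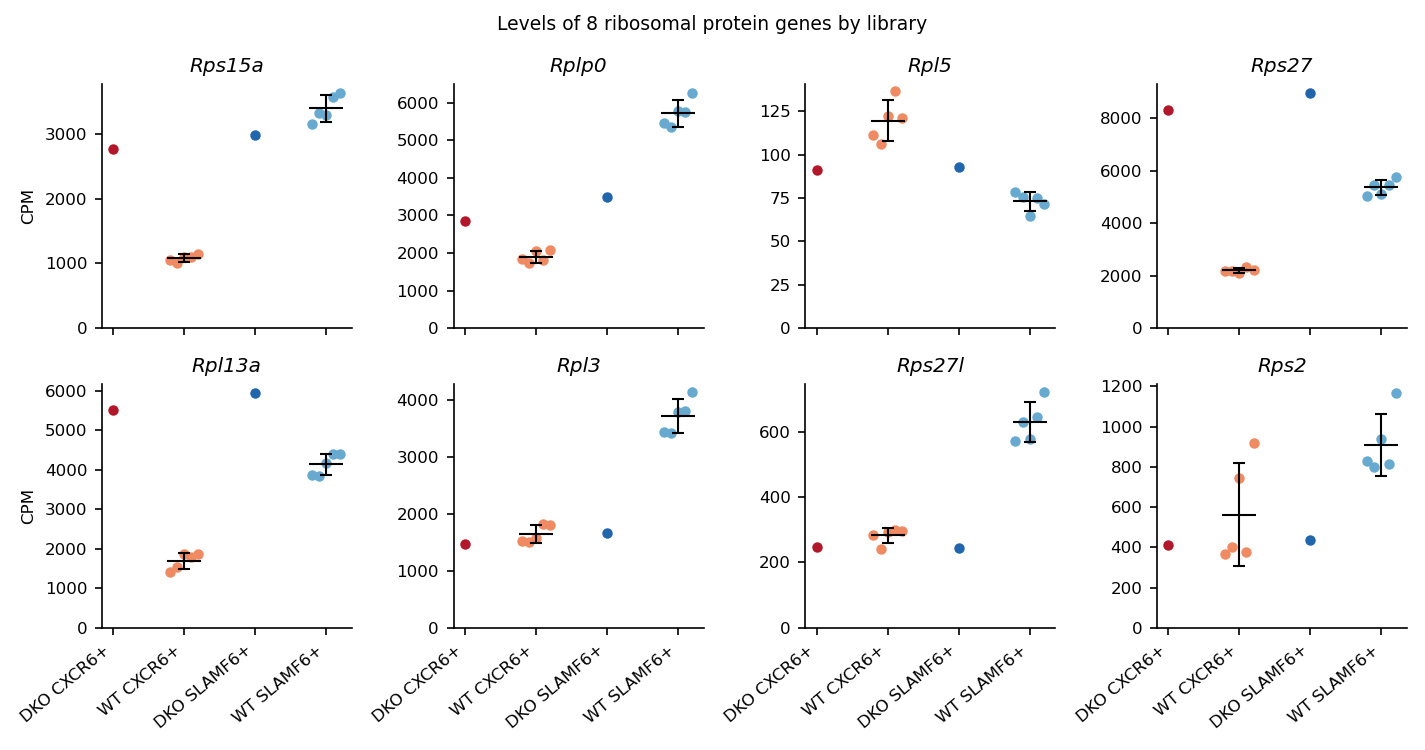
CPM of Rps15a, Rplp0, Rpl5, Rps27, Rpl13a, Rpl3, Rps27l and Rps2 by group, each point a library and each bar the mean ± SD of 5 WT libraries; the axes start at 0. Rps27 and Rpl13a are higher in both DKO libraries than in every WT library, and Rpl5 is the reverse of Rps15a in WT cells.

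In CXCR6+ cells most members were higher in the DKO library than in WT. Of 90 tested members 65 were higher and 0 lower by edgeR's quasi-likelihood test (adjusted after Benjamini-Hochberg) (12.8% and 15.9% of all genes). At an unadjusted p under 0.05 1 member was lower, and DESeq2's Wald test called 2 lower. The median log2 fold change was 0.67, and that of all genes -0.22. The DKO value lay above all 5 WT values for 77 members (29.6% of all genes) and below them for 2 (28.1%). The small subunit core genes had a median of 0.96 (24 of 30 higher) and the large subunit core genes 0.62 (36 of 46 higher). The 1 DKO library was assumed to vary like the WT libraries.

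Rps27, a zinc-binding protein of the small subunit, stood furthest above WT. It had 8309 CPM in DKO CXCR6+ and 2164, 2183, 2111, 2347 and 2217 CPM in the WT CXCR6+ libraries (log2 1.91, SE 0.10, adjusted p 2.91e-07, edgeR). Also among the 5 highest members of at least 20 CPM were its retrocopy Rps27rt (log2 1.83), Rpl13a (1.70) and Rpl37a (1.54). Rpl13a, a large subunit protein also known for restraining translation of inflammatory messages in human myeloid cells, had 5511 CPM in DKO CXCR6+ and 1416, 1528, 1866, 1798 and 1863 CPM in WT CXCR6+. At the other end Rpl5 had 91.1 CPM in DKO CXCR6+ and 106 to 137 CPM in WT CXCR6+ (log2 -0.39, adjusted p 0.0635, edgeR). Rpl3, a protein beside the peptidyl transferase centre, had 1469.9 CPM in DKO CXCR6+ and 1507 to 1820.0 CPM in WT CXCR6+ (log2 -0.16, adjusted p 0.464, edgeR). Both lay below the WT range without being called.

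By role, 4 of 4 stalk genes, 7 of 8 exit tunnel genes, 6 of 8 genes of the messenger RNA channel and 17 of 23 Diamond-Blackfan genes were higher in DKO CXCR6+ cells, and none of these lists held a lower member. Rpl11 was higher (log2 0.58, adjusted p 0.00214, edgeR), and Rps6 was not called (log2 0.33, adjusted p 0.0655). With DESeq2's Wald test or a filter of 10 CPM in 5 libraries, Rps6 was called higher and Rpl5 lower. Of the 4 members on the X chromosome (Rps4x, Rpl10, Rpl36a and Rpl39), 3 were higher.

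In SLAMF6+ cells the members were split. In the DKO library 34 of 90 were lower and 5 higher by edgeR's quasi-likelihood test (adjusted after Benjamini-Hochberg) (17.5% and 13.5% of all genes), with a median log2 fold change of -0.31 (all genes -0.05). The DKO value lay below all 5 WT values for 65 members (30.9% of all genes) and above them for 14 (35.1%). This balance depended on the filter: with one of 10 CPM in 5 libraries 15 were lower and 14 higher with a median of -0.01. After offsets for transcript length and GC content 22 were lower.

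Rps27l, a paralogue of Rps27 whose gene is induced by p53, fell furthest among members of at least 20 CPM. It had 243 CPM in DKO SLAMF6+ and 572, 629, 577, 645 and 722 CPM in WT SLAMF6+ (log2 -1.37, SE 0.16, adjusted p 7.31e-05, edgeR). Rpl3 had 1663 CPM in DKO SLAMF6+ and 3444, 3420.1, 3795, 3804 and 4143 CPM in WT SLAMF6+ (log2 -1.16, adjusted p 2.4e-04, edgeR). Both DKO values lay far below the WT range. Rpl10a (log2 -0.92) and Rpl36a (-0.91) were lower too, and Rps2 (-1.05, adjusted p 0.139, edgeR) was not called.

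The 5 higher members in DKO SLAMF6+ were Rps27rt, Rps27, Rpl13a, Rpl37a and Rps29, of which the first 4 were also among the 5 highest members of at least 20 CPM in DKO CXCR6+. Rps27 had 8934 CPM in DKO SLAMF6+ and 5036, 5464, 5101, 5445 and 5745 CPM in WT SLAMF6+ (log2 0.74, adjusted p 3.04e-04, edgeR). Rpl13a had 5938 CPM in DKO SLAMF6+ and 3871, 3849, 4166, 4397 and 4393 CPM in WT SLAMF6+ (log2 0.52, adjusted p 0.0254, edgeR). The DKO value exceeded every WT value of its subset for both. The calls of Rpl13a and Rps29 were lost without a filter on low counts. That of Rpl13a was also lost with a term for the 5 libraries that had no count of the mitochondrial transfer RNA gene mt-Ts1. These libraries were WT CXCR6+ replicate 1 and WT SLAMF6+ replicates 1, 3, 4 and 5, so the term nearly coincides with the WT SLAMF6+ group. By role, 1 of 4 stalk genes (Rplp0), 4 of 8 exit tunnel genes, 3 of 8 genes of the messenger RNA channel and 4 of 4 X-linked members were lower. Of the Diamond-Blackfan genes 8 were lower and 2 higher (Rps27 and Rps29), while Rpl5 was not called (log2 0.35, adjusted p 0.0741, edgeR). Rpl5 was called higher with DESeq2 size factors, the 10 CPM filter, GC and length offsets or DESeq2's Wald test (log2 0.42 to 0.64).

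The difference between DKO and WT libraries was not the same in the 2 subsets for most members. In the interaction, the DKO minus WT difference in CXCR6+ less that in SLAMF6+, 74 of 90 members were positive and 1 negative by edgeR's quasi-likelihood test (adjusted after Benjamini-Hochberg) (6.36% and 3.94% of all genes), with a median of 1.05 (all genes -0.10). The smallest p were those of Rps15a (log2 1.54, adjusted p 0.00111), Rpl7 (1.19, 0.00111) and Rpl34 (1.47, 0.00127), all from edgeR. The interaction equals the subset difference between the DKO libraries less that in WT, so it is not separate from the WT comparison. Rps15a had 2761 CPM in DKO CXCR6+ and 1000.3 to 1151 CPM in WT CXCR6+, and 2983 CPM in DKO SLAMF6+ and 3146 to 3631 CPM in WT SLAMF6+. Rpl5 was the negative one (log2 -0.74, adjusted p 0.037, edgeR), a call that was lost without the filter on low counts (adjusted p 0.124, edgeR), with the mt-Ts1 term (0.0807) and when single replicates were left out (up to 0.0851). The positive count was 38 after offsets for transcript length and GC content.

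Between the DKO libraries the direction of the subset difference turned with the scaling. In TMM-scaled CPM, DKO CXCR6+ was below DKO SLAMF6+ for 74 of 76 core genes, with a median log2 ratio of -0.18 (-0.67 to 0.11). As a share of all counts it was above DKO SLAMF6+ for 63 of 76 and below for 13, with a median of 0.099. That total includes haemoglobin genes, at 11.9% of counts in DKO SLAMF6+ and 0.00025% in DKO CXCR6+. With mitochondrial and haemoglobin genes left out of the total, the members held 17.2% in DKO CXCR6+ and 18.8% in DKO SLAMF6+. This is the direction of the TMM-scaled CPM. On the first scale the ratio reached 1 in size for 0 of 76. In WT cells the median over the same genes was -1.26 in TMM-scaled CPM. With 1 library each, the DKO ratio has no replicate check.

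To describe how the members changed against each other, the sum of their counts was taken as the library size, so that a fold change is relative to that sum. On this scale 26 members were higher and 14 lower in WT CXCR6+ against WT SLAMF6+ by edgeR's quasi-likelihood test (adjusted after Benjamini-Hochberg) (63.8% and 0.505% of all genes, since the sum itself differed). The 76 core genes had an SD of 0.30 in log2 fold change, and all but Rpl5 (2.02) lay between -0.34 (Rpl32) and 0.59 (Rps2). The SD of the same genes in DKO against WT was 0.46 in CXCR6+ and 0.38 in SLAMF6+. In DKO CXCR6+ 15 members were higher and 29 lower (4.15% and 31.4% of all genes), and in DKO SLAMF6+ 15 and 18 (17.7% and 13.1%). The counts of lower members in CXCR6+ and of higher members in SLAMF6+ are near these background shares. In the interaction on this scale Rps15a was positive (log2 0.41) and 3 members, Rpl5 and Rpl36al among them, negative (0.547% and 22.4% of all genes).

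Several members were called in the same direction in both subsets. Higher in both were 10 of 90 members (3.57% of all genes), which is 66.7% of the 15 in each subset, among them Rps27, Rps27rt, Rpl13a, Rpl37a, Rps21, Rps29, Rpl38, Rps16 and Rps28. Lower in both were 16 of 90 (11.9% of all genes), which is 55.2% of the 29 in CXCR6+ and 88.9% of the 18 in SLAMF6+, among them Rpl3, Rps27l, Rpl36a, Rpl10a, Rps26, Rpl41, Rpl15 and Rpl4. Rpl5 was the 1 member called in opposite directions, lower in DKO CXCR6+ (-1.24) and higher in DKO SLAMF6+ (0.62). Across the 76 core genes the 2 comparisons, which share no library, correlated with Pearson's r = 0.75; genes of a library share its depth and preparation, so this is a description without a p.

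Rps27 alone made up 5.27% of all member counts in DKO CXCR6+, 2.23 to 2.75% in WT CXCR6+, 4.99% in DKO SLAMF6+ and 2.38 to 2.56% in WT SLAMF6+. Rpl13a made up 3.49% in DKO CXCR6+, 1.69 to 2.07% in WT CXCR6+, 3.32% in DKO SLAMF6+ and 1.80 to 1.96% in WT SLAMF6+. Both DKO libraries lay above every WT library. Rpl3 went the other way, with 0.932% in DKO CXCR6+, 1.66 to 2.10% in WT CXCR6+, 0.930% in DKO SLAMF6+ and 1.60 to 1.84% in WT SLAMF6+. Relative to the sum its log2 fold change was -1.02 in CXCR6+ and -0.89 in SLAMF6+ (adjusted p 1.7e-04 and 5.36e-04, edgeR).

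**Figure D4:**
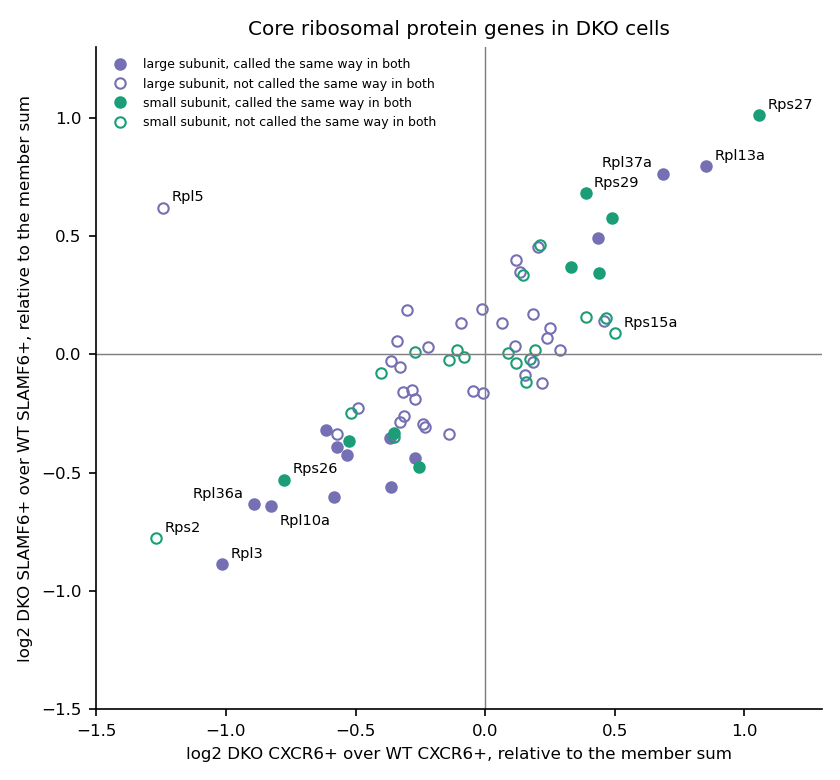
Log2 fold change of DKO over WT relative to the member sum, in CXCR6+ (horizontal) and SLAMF6+ (vertical), for 73 core genes; colour gives the subunit and filled points were called in the same direction in both. Most points lie along the diagonal between Rpl3 and Rps27 (r = 0.75 over all 76), with Rpl5 far from it.

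**Figure D5:**
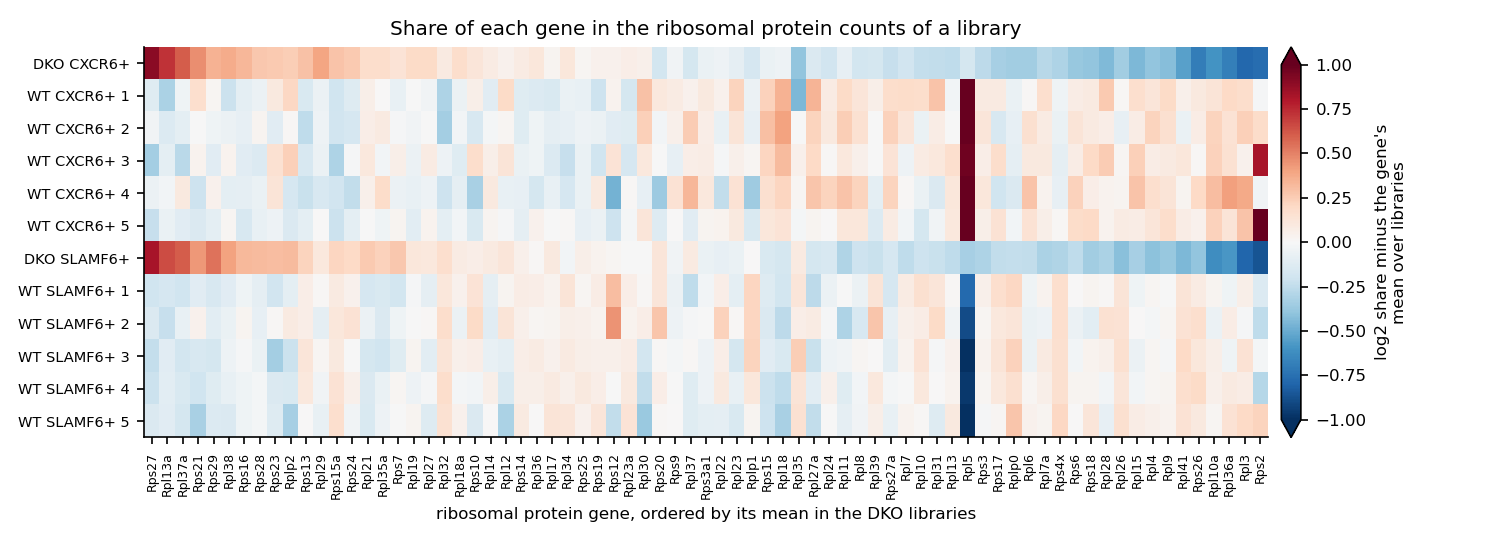
Log2 share of 73 core genes in the member counts of a library, minus the gene's mean over the 12 libraries; rows are libraries, columns genes ordered by their mean in the DKO libraries, red above and blue below the mean, and colours end where the bar's arrows stand. Both DKO rows run from red to blue, as the order of the columns sets, and Rpl5 is red in WT CXCR6+ and blue in WT SLAMF6+ rows.

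Coding lengths of these sets are given as a description. The 9 core genes higher in both had a median coding sequence of 249 bases (168 to 438) and the 14 core genes lower in both 572 bases (75 to 1257), with a median of 435 bases over the 76. Across core genes the log2 fold change relative to the sum correlated with log2 coding length at r = -0.40 in DKO CXCR6+ against WT and -0.34 in DKO SLAMF6+ against WT. It was 0.24 in WT CXCR6+ against WT SLAMF6+. After offsets for transcript length and GC content the values were -0.31, -0.24 and 0.13. Exceptions were short genes in the lower set, such as Rpl41 at 75 bases. The part of length in the DKO pattern was otherwise not tested.

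Paralogues differed from their parents in places. In DKO CXCR6+ the pair Rps27 and Rps27l parted, with Rps27l at 247 CPM in DKO CXCR6+ and 241 to 299.8 CPM in WT CXCR6+ (log2 -0.20, not called). Relative to the sum, Rps27l was lower in both subsets (log2 -1.05 in CXCR6+ and -1.10 in SLAMF6+; adjusted p 5.75e-05 and 5.73e-05, edgeR). Rps27rt stood at 660.0 CPM in DKO CXCR6+, 139.7 to 233 CPM in WT CXCR6+, 822 CPM in DKO SLAMF6+ and 329 to 499 CPM in WT SLAMF6+. As a near-identical copy it may share reads with Rps27, so its values are uncertain, as are those of Rpl37rt and Rpl37.

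Rpl22, which in mice is needed for αβ T cell development, and its paralogue Rpl22l1 were both lower in WT CXCR6+ (log2 -1.43 and -1.23). In DKO CXCR6+ Rpl22 was higher (log2 0.84, adjusted p 0.00107, edgeR), while Rpl22l1 was not called (0.35, 0.12). Rpl36al, a retrocopy of Rpl36a, was not called in DKO SLAMF6+ (log2 -0.14), where Rpl36a was lower (-0.91). Rpl7l1, whose product acts in ribosome assembly, was lower in WT CXCR6+ (44.9 ± 8.18 CPM in WT CXCR6+ cells, against 81.0 ± 4.69 CPM in WT SLAMF6+, SD, n = 5 each), as was Rpl7. Rpl39l, Rpl3l, Rpl10l and Rps4l, expressed mainly in testis, muscle or germ cells or with no known role here, held 0 to 39 counts per library. Differences between paralogue and parent were not tested as such.

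Of the ribosomal protein genes outside the rule, Fau is made as a fusion of a ubiquitin-like protein with a small subunit protein, and Rpsa and Rack1 lie on the small subunit. All 3 were lower in WT CXCR6+ cells than in the other WT subset (log2 -1.23, -1.38 and -0.90). Fau stood at 3458 CPM in DKO CXCR6+ and 1707 ± 113 CPM in WT CXCR6+. It stood at 3668 CPM in DKO SLAMF6+ and 3992 ± 144 CPM in WT SLAMF6+ (SD, n = 5 in WT). In DKO against WT CXCR6+ cells all 3 were higher (log2 1.02, 0.71 and 0.47). In DKO against WT SLAMF6+ cells Rpsa (-0.55) and Rack1 (-0.38) were lower, by edgeR, and Fau was not called (-0.12).

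Other TOP messages, which code for translation factors and partners, went with the members in WT cells. In CXCR6+ 14 of 16 were lower and 1 higher (17.7% and 15.6% of all genes), with a median of -1.02. Eef1a1, the elongation factor that delivers transfer RNA, averaged 4106 ± 223 CPM in WT CXCR6+ cells, against 10068 ± 376 CPM in WT SLAMF6+ (log2 -1.29, adjusted p 5.14e-07, edgeR, n = 5 each). In DKO CXCR6+ against WT CXCR6+ the list had a median of 0.16 (all genes -0.22). Its genes were split in direction. Among those named by p, Tpt1 rose (log2 1.78), while Hnrnpa1 (-1.78), Gas5 (-1.32) and Nap1l1 (-1.03) fell. In DKO SLAMF6+ against WT SLAMF6+ the median was -0.75 (all genes -0.05), with Hnrnpa1 at -2.32, Eef2, the translocation factor, at -1.24 and Eef1g at -1.15.

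Ribosome biogenesis genes, 40 factors that make and process ribosomal RNA, were split in WT cells. In WT CXCR6+ 13 were lower and 9 higher (median -0.05). Npm1, a nucleolar chaperone, was lower (log2 -1.16), and Noc2l (1.10) and Utp20 (1.21) were higher. DKO cells had 18 of 40 lower in each subset, with 2 higher in CXCR6+ and 1 in SLAMF6+ (medians -0.42 and -0.39). Those with the smallest p were Nop16 (log2 -1.75) and Rrp1 (-0.95) in DKO CXCR6+, and Npm1 (-1.57) and Rrp1 (-1.05) in DKO SLAMF6+. These counts and those of the lists below are edgeR calls and stand against the shares of all genes given above.

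Signalling genes that act on TOP messages gave 5 higher and 2 lower of 14 in WT CXCR6+. Larp1, which binds the TOP run, was higher (log2 1.09), as was Rptor, a subunit of mTORC1 (0.96), and Eif4ebp1, a translation repressor held off by mTORC1, was lower (-1.06). Eif4ebp1 stood at 24.0 CPM in DKO CXCR6+ and 151 ± 19.0 CPM in WT CXCR6+ (log2 -2.65). It stood at 17.1 CPM in DKO SLAMF6+ and 315 ± 20.4 CPM in WT SLAMF6+ (log2 -4.20; SD, n = 5 in WT). In DKO CXCR6+ 3 of 14 were higher and 4 lower, and in DKO SLAMF6+ 3 and 2, with Mtor lower in both (log2 -1.12 and -1.33).

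Of 9 regulators of ribosomal protein genes, which include the member Rpl22, 2 were higher and 2 lower in WT CXCR6+. These counts are near the shares of all genes (15.6% and 17.7%). The medians of the 9 were -0.11 in WT, 0.22 in DKO CXCR6+ and -0.24 in DKO SLAMF6+. Myc, which drives ribosome production, stood at 43.5 CPM in DKO CXCR6+ and 173 ± 28.6 CPM in WT CXCR6+. It stood at 55.0 CPM in DKO SLAMF6+ and 205 ± 24.2 CPM in WT SLAMF6+ (SD, n = 5 in WT). It fell in DKO cells of both subsets (log2 -1.99 and -1.90). Mxd4, an antagonist of Myc, rose in both (1.01 and 1.74). Most of the 9 regulators were not called in each DKO comparison, and the calls went in both directions. Among 7 tested genes of ribosomal protein surveillance, which links free ribosomal proteins to p53, the p53 target Cdkn1a was lower in DKO cells (log2 -5.98 in CXCR6+ and -5.54 in SLAMF6+), as was Mdm2 (-0.81 and -1.03). In each subset 3 of the 7 were lower (Cdkn1a, Mdm2 and Nle1) and the other 4, Trp53 among them, were not called.

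Features of the genes that the rule did not use are given as descriptions of the WT comparison. The 76 core genes lie on 19 chromosomes. Host genes of small nucleolar RNAs, 29 members, had a median log2 fold change of -1.24, with 27 lower and 1 higher (Rpl5). Core genes with the pyrimidine run at the start had a median of -1.25 (34 genes) and those without it -1.24 (22 genes). X-linked members had a median of -1.44, with 4 of 4 lower.

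Named pseudogene rows, 296 in number, show how counts are divided among near-identical copies. They held 1.86% of counts in DKO CXCR6+, 1.15 to 1.39% in WT CXCR6+, 1.73% in DKO SLAMF6+ and 2.55 to 2.71% in WT SLAMF6+, the same order as the members. Pooled over each group, copies held 70.7%, 70.5%, 68.2% and 76.1% of the sum of Rps23 with its copies in DKO CXCR6+, WT CXCR6+, DKO SLAMF6+ and WT SLAMF6+, so the level of that row is uncertain. In every group copies held at least 10% of the sum for 19 parents, whose levels are uncertain in the same way. Among these were Rps6 (33.4 to 36.3%), Rpl36a (41.1 to 43.1%), Rps12 (61.2 to 66.3%), Rpl31 (61.9 to 64.4%), Rps26 (31.0 to 42.4%) and Rpl3 (11.3 to 14.5%). For Rps27 they held at most 0.225% and for Rpl13a at most 0.0326%. Adding the copies to their parents changed none of the calls of the members named by the rule.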

How the data were processed

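RNA of 12 libraries was measured with SMART-Seq2, a full-length, unstranded method. The authors deposited expected counts per gene, for which the submitters' processing notes name RSEM 1.3.3, STAR 2.7.7a and the mm10 build. Their annotation and how multi-mapped reads were dealt with is not given in the sources used here. Without strand, overlapping genes cannot be told apart.

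The counts were rounded to whole numbers, filtered with filterByExpr (21565 genes kept) and scaled with TMM. They were fitted in R 4.3.3 with edgeR 4.0.16 (quasi-likelihood test) as 4 groups in 1 fit with 8 residual degrees of freedom. Benjamini-Hochberg adjustment ran over all genes tested, with a threshold of 0.05. Each DKO group has 1 library, which was assumed to vary like the WT libraries. The labels do not say that replicates came from separate animals, so p-values measure only the spread between these samples, which may be technical. The steps were tested on data simulated with the same spread for every library, which cannot test the assumption made for the DKO libraries.

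The members, the lists and the rule for named genes were chosen with earlier results of these data known. The text names the role lists, the 6 lowest and 6 highest members in WT and the 5 lowest and 5 highest in each DKO comparison with a mean of at least 20 CPM. It also names the paralogue pairs, the 3 smallest p of the interaction and up to 4 genes of each other list by p. Members named beyond that were chosen after their values were seen. Coordinates and coding lengths came from GENCODE M21 (92 of 93 members matched) and sequences from RefSeq. Alternatives were other scalings, filters and library sizes, offsets for GC content and transcript length, pseudogene counts added to their parents, a term for libraries without mt-Ts1 counts, left-out libraries, a replicate block and the Wald test of DESeq2 1.42.0. The labels use the same numbers for the WT libraries of both subsets. Deviations from the group mean correlated at -0.01 to 0.08 over 7876 genes between same-numbered WT libraries. The numbers were therefore not taken to pair them, though this cannot exclude a pairing. Some genes are not reported here or drawn in the figures, though counts over all members include them.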

Additional observations from a re-analysis of the deposited data

Results flagged for a closer look

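Of 86 sets of 5 WT values examined for a library far from the others, 8 stood out, and chance gives about 1 in 20. Rpl11 was at 1068 CPM in WT SLAMF6+ replicate 2 (others 1266 to 1304 CPM). Rpl37 was at 627 CPM in WT SLAMF6+ replicate 1 (others 749 to 782 CPM). Rps27l was at 241 CPM in WT CXCR6+ replicate 2 (others 284 to 299.8 CPM). The low members that stood out were Rps12l1 at 18.5 CPM in WT SLAMF6+ replicate 4, Rpl39l at 1.90 CPM in WT CXCR6+ replicate 5, and Rpl10l at 0.483 CPM in WT CXCR6+ replicate 1 and 0.292 CPM in WT SLAMF6+ replicate 4. The last pair rests on 4 and 3 counts. The ratio of large to small subunit counts was 1.42 in WT CXCR6+ replicate 4 (others 1.38 to 1.39).

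By the interaction term the difference between DKO and WT libraries was not the same in the 2 subsets for 74 members in the positive direction and 1 in the negative, by edgeR. The positive count was 38 after offsets for transcript length and GC content, and what else sets the single DKO libraries apart cannot be told apart from the genotype. The smallest p belonged to Rps15a (log2 1.54), Rpl7 (log2 1.19) and Rpl34 (log2 1.47). Since the interaction contains the WT subset difference, it is not separate from the WT comparison.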

How the results depend on the processing

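Taking the member sum as library size measures another quantity. It left 14 members lower in WT, 15 higher in DKO CXCR6+, 15 higher and 18 lower in DKO SLAMF6+ and 1 positive in the interaction, with medians of 0.062 (WT), -0.18 (DKO CXCR6+) and -0.031 (DKO SLAMF6+). The signs of the first 2 medians were reversed by that construction, and single genes on this scale are given only in the text. With the 10 CPM filter the WT median was -0.99, and DKO SLAMF6+ had 14 higher, 15 lower and a median of -0.012. With GC and length offsets (90.5% of tested genes had values) the medians were -0.86 (WT), 0.46 (DKO CXCR6+) and -0.20 (DKO SLAMF6+), with 22 lower in DKO SLAMF6+ and 38 positive in the interaction. Fitting the WT groups alone gave a WT median of -1.12. DKO SLAMF6+ also had 3 higher members without a filter and 3 with the mt-Ts1 term (median -0.36), 8 with DESeq2's Wald test (median -0.23), and a median of -0.23 with DESeq2 size factors. The cause of these shifts was not tested.

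Leaving out replicates gave 82 to 86 lower members in WT (median -1.29 to -1.21), 61 to 68 higher in DKO CXCR6+ (0.64 to 0.71), 5 to 6 higher and 27 to 36 lower in DKO SLAMF6+ (-0.33 to -0.28), and 69 to 76 positive in the interaction. With the replicate block 85 members were lower in WT (median -1.25) and 70 positive in the interaction. Rps2 became lower in WT under the block (log2 -0.79), and the Rpl5 interaction lost its call (adjusted p 0.0917, edgeR).

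Shares without mitochondrial and haemoglobin genes were 17.2% (DKO CXCR6+), 12.02% (WT CXCR6+), 18.8% (DKO SLAMF6+) and 19.8% (WT SLAMF6+). With named pseudogenes they were 17.8%, 11.4%, 16.6% and 21.8% in the same groups. Calls of single named genes lost their threshold in 22 of 148 cases with GC and length offsets and in 11 of 136 with the 10 CPM filter, and none changed sign. Depth limits the low members, such as Rpl3l, Rpl10l, Rps23rg1, Rpl39l, Rps4l, Rpl32l, Rpl6l and Rps3a3.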
